A study of Mus musculus with 8 samples.

Results

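The transcriptome of Osr1cKO FAPs was compared between 3 and 7 days post injury (dpi), over all genes of the deposited expression tables. Fibro-adipogenic progenitors (FAPs) are the interstitial mesenchymal cells of skeletal muscle, and Osr1 encodes a zinc finger transcription factor that they re-express after injury. All 4 libraries of this genotype, 2 per day, were used, of 8 libraries in the series. The other 4 are FAPs of heterozygous controls, 2 at each day, and serve here to test whether a change between the days differed between the genotypes. Every gene whose level passed a minimum is a member, so no gene was chosen by its change.

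The Osr1cKO mice carried the genotype Osr1 flox/flox CAGG Cre+ and the controls Osr1 flox/+ CAGG Cre+. CAGG-CreER is active in every tissue, so recombination was not limited to FAPs, and mice of both genotypes received tamoxifen on the day of injury and on the days that followed, with the last dose given before 3 dpi. Recombination of the floxed allele places eGFP under the control of Osr1, and the cells were sorted by eGFP without CD45, CD31, TER119 or α7-integrin staining from tibialis anterior muscle injured by freeze-piercing. The mice were 4 to 6 months old. Each library at 3 dpi came from 1 mouse and each library at 7 dpi from a pool of 4 mice. The sequencing methods list a HiSeq and a NovaSeq run of unlike read length, whereas every label gives 1 read length, so day, pooling and possibly the instrument cannot be told apart. p-values measure the spread between 2 libraries a day, of which those at 7 dpi are means over animals.

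After muscle injury FAPs enter the cell cycle within days, secrete a provisional matrix and cytokines that act on muscle stem cells and macrophages, and later leave the cycle and return towards the resting number of cells. In this early window they also respond to interferon, and cells of the same lineage can give rise to fibroblasts, tendon-like cells, cartilage or fat under other conditions. The day contrast within Osr1cKO FAPs covers this window in cells sorted for recombination of the floxed Osr1 allele.

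Values are TPM, the share of a gene among all transcripts after correction for gene length. Depth recovered from the steps between low values was 49967501 and 51096361 fragments on genes at 3 dpi and 36516534 and 37072701 at 7 dpi, so low genes carry more counting error at 7 dpi. Replicate 1 of a day is called the first library and replicate 2 the second. FAP markers were high in all 4 libraries. Pdgfra, the receptor that defines FAPs, had 254 and 335 TPM at 3 dpi and 212 and 229 TPM at 7 dpi, and Dcn, encoding the matrix proteoglycan decorin, had 848 and 1099 TPM at 3 dpi and 2221 and 2745 TPM at 7 dpi. Apart from the mural and endothelial markers, given further on, each list of markers of other cells summed to 155 TPM or less in every library. Most tested genes of each list were called higher at 7 dpi, against 21.7% of all genes tested, except those of Schwann cells (3 of 8). A marker near 0 at 3 dpi could pass the minimum level only through the 7 dpi libraries, so such counts are no support for a rise. Of 12 T, B and NK cell markers 3 were tested, of 8 erythroid markers 2 and of 8 neutrophil markers 3. The macrophage markers summed to 40.1 and 34.1 TPM at 3 dpi and 91.8 and 118 TPM at 7 dpi, with 10 of 15 called higher and Ptprc, which encodes the CD45 antigen that was sorted out, between 0.00834 and 0.216 TPM. Erythroid markers summed to 1.44 and 0 TPM at 3 dpi and 11.7 and 54.2 TPM at 7 dpi. Myofiber markers summed to 13.5 and 11.6 TPM at 3 dpi and 54.2 and 54.6 TPM at 7 dpi, with 9 of 11 called higher. Of the muscle stem cell and myoblast markers 8 of 10 were called higher, with Pax7, the stem cell factor, at 0 and 0 TPM at 3 dpi and 0.355 and 0.444 TPM at 7 dpi. The lymphocyte markers Cd8a, Ms4a1, Ncr1 and Gzma were at 0 in all 4 libraries. Mitochondrially encoded genes took 0.565% and 0.962% of TPM at 3 dpi and 3.31% and 3.26% at 7 dpi, and 4 ribosomal RNA entries took 2.24% and 3.86% against 8.73% and 6.04%. The Y-linked gene Ddx3y was at 0 in both 3 dpi libraries and at 10.5 and 2.22 TPM at 7 dpi. Xist was at 46.3 and 40.9 TPM at 3 dpi and 109.9 and 103 TPM at 7 dpi. The 7 dpi pools thus held male and female mice, and the 3 dpi mice showed no Ddx3y RNA. The mix of sexes goes with day and cannot be told apart from it. The part of these differences in the results below was not tested, except where a value without the entries is given. In these bulk libraries, fewer cells of a kind and less RNA per cell cannot be told apart.

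Osr1 itself (GRCm38 chromosome 12, 9570116 to 9581500, plus strand) had 70.7 and 71.9 TPM at 3 dpi and 64.4 and 60.8 TPM at 7 dpi in Osr1cKO FAPs, a log2 fold change of -0.25 ± 0.09 (standard error) that did not pass the test (limma adjusted p = 0.0791). The table holds 1 value for the gene, which includes exons outside the deleted part, so it is no check of the deletion. Both 3 dpi libraries lay above both 7 dpi libraries. In the fit of all 8 libraries Osr1 was called lower (log2 fold change -0.29, adjusted p = 0.0457). Control FAPs had 105 and 91.0 TPM at 3 dpi and 67.6 and 71.6 TPM at 7 dpi.

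Of 16279 genes tested, 3533 (21.7%) were called higher at 7 dpi and 4087 (25.1%) lower, 46.8% in all. A gene was called when limma gave an adjusted p under 0.05 and the fold change passed 1.2, both on the scale of log2(TPM + 1), on which the change of low genes is understated. The count was 1326 higher (8.15%) and 1180 lower (7.25%) at more than 2-fold. Libraries of the days did not overlap for 77.2% of genes, called or not, so separation alone marks little. All 7620 called genes were separated, and the rule for naming called genes asked for it, so that order adds no support to a call. Replicates differed by a median of 0.15 at 3 dpi and 0.14 at 7 dpi on the log2 scale. By type of gene, 28.5% of protein-coding genes were called lower and 17.8% higher, whereas 41.9% of processed pseudogenes, 70.0% of 50 sense-intronic transcripts and 33.0% of antisense genes were called higher. These classes were higher beside the mitochondrial and ribosomal RNA entries, whose part in them was not tested. Low members of these classes could pass the minimum level through the 7 dpi libraries alone, so the filter bears on these shares. Leaving out those entries gave 3521 higher and 4082 lower. Leaving out a 7 dpi library left 1748 higher and 2276 lower without the first and 1526 and 1929 without the second, in a fit where the lone library is assumed to vary like those of 3 dpi.

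On the scale of log2(TPM + 1), and leaving out predicted genes and those under 20 TPM at both days, the largest rise was in Tnmd (GRCm38 chromosome X, 133850980 to 133865577, plus strand), which encodes tenomodulin, a membrane glycoprotein of tendon cells. Its level was 4.73 and 4.29 TPM at 3 dpi and 264 and 350.2 TPM at 7 dpi, a log2 fold change of 5.73 ± 0.14 (limma adjusted p = 0.000965), so both libraries at 7 dpi stood far above both at 3 dpi. With limma-voom on recovered fragments Tnmd had 6.01 and Mmp13 the larger value of 6.48. Mmp13, a collagenase, had 2.57 and 0.257 TPM at 3 dpi and 56.3 and 103 TPM at 7 dpi (5.14 ± 0.55, adjusted p = 0.00235). Kera, the corneal and tendon proteoglycan keratocan, had 1.07 and 0.435 TPM at 3 dpi and 39.2 and 70.8 TPM at 7 dpi (4.91 ± 0.32). Rgs5, a G protein regulator known as a pericyte marker, had 0.626 and 0.504 TPM at 3 dpi and 27.6 and 50.8 TPM at 7 dpi. All 3 were near or below 3 TPM in both 3 dpi libraries. Ptn, the heparin-binding growth factor pleiotrophin, had 25.97 and 12.4 TPM at 3 dpi and 383 and 431 TPM at 7 dpi, and Prss35, a serine protease homolog, went from 2.25 and 0.798 to 36.6 and 39.5 TPM. Mest rose from 60.4 and 29.6 to 641 and 635 TPM (3.82 ± 0.33). Mest overlaps Copg2 on the other strand and the use of strand in counting was not given in the sources used here, so its level is uncertain. The 2 short entries among the 20 largest changes, Mir541 (0 and 0.849 to 15.02 and 39.3 TPM) and Mir3091 (51.0 and 41.2 to 0 and 6.85 TPM), count fragments of longer transcripts that cover the hairpins. mt-Co2 (from 1.39 and 3.35 to 62.9 and 45.0 TPM) shares reads with nuclear copies of the mitochondrial genome and is uncertain too. Mmp13 had a log2 fold change of 5.91 without the first 3 dpi library and 4.36 without the second 3 dpi library. Mir3091 had a log2 fold change of -2.62 without the first 7 dpi library and -5.54 without the second 7 dpi library.

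Among the 10 largest falls by the same rule, 7 were genes of the cell cycle or of DNA synthesis. Aurkb, a kinase of chromosome segregation, had 48.4 and 64.4 TPM at 3 dpi and 3.53 and 4.52 TPM at 7 dpi (-3.56 ± 0.17, adjusted p = 0.000968). Dio3, which inactivates thyroid hormone, fell from 91.3 and 66.6 to 11.7 and 5.999 TPM, and Dnph1, a nucleotide hydrolase, from 18.5 and 27.1 to 2.01 and 1.31 TPM. In each of these genes the lowest library at 3 dpi lay above the highest at 7 dpi, as the rule that picked them required.

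**Figure D1:**
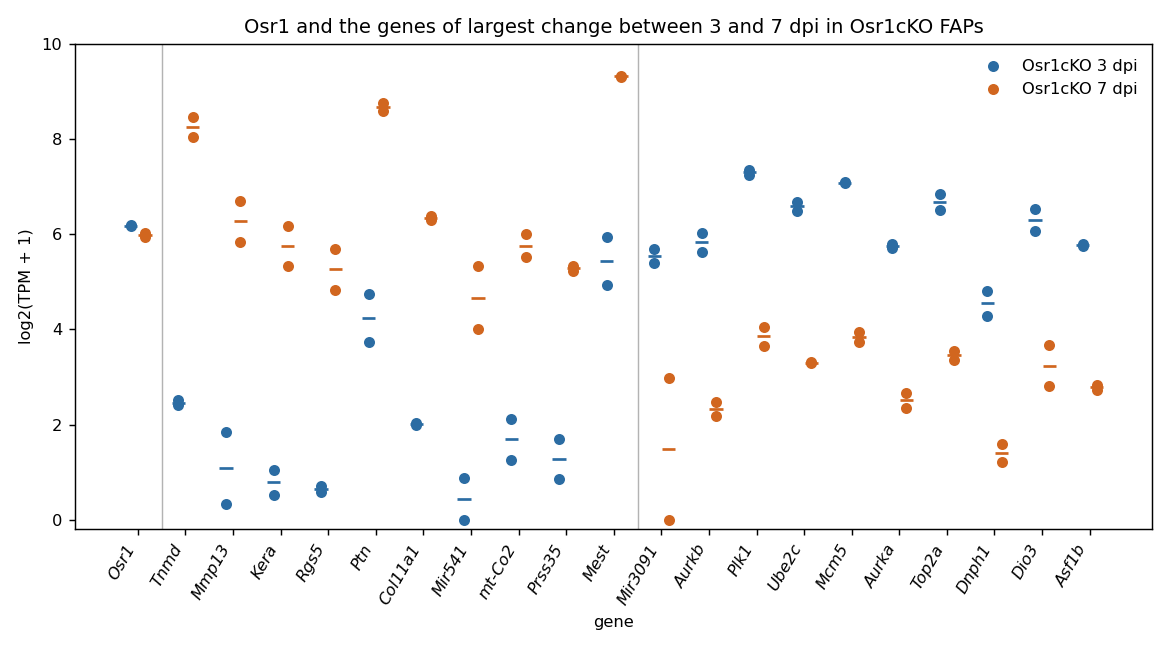
Level of Osr1 and of the 10 genes of largest rise and of largest fall, as log2(TPM + 1), in each Osr1cKO library at 3 dpi (blue) and 7 dpi (orange); points are libraries and short lines are means of 2. Osr1 stayed within 60.8 to 71.9 TPM, while Tnmd went from under 5 to above 260 TPM and Plk1 from above 150 to under 16 TPM.

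In all, 37 gene lists were described by counts and medians. These are set beside the shares over all genes tested, 21.7% higher and 25.1% lower, and their median log2 fold change of 0.00. A count near those shares says little about its list. Of 845 listed genes, with repeats between lists counted, 811 passed the minimum level and were tested. No list was tested as a set, and the range of counts over the 4 fits that each left out 1 library is given beside its counts. In all 37 lists the fewest calls, or a tie for the fewest, came without a 7 dpi library. Lower counts in those ranges thus include those fits unless another library is named.

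**Figure D2:**
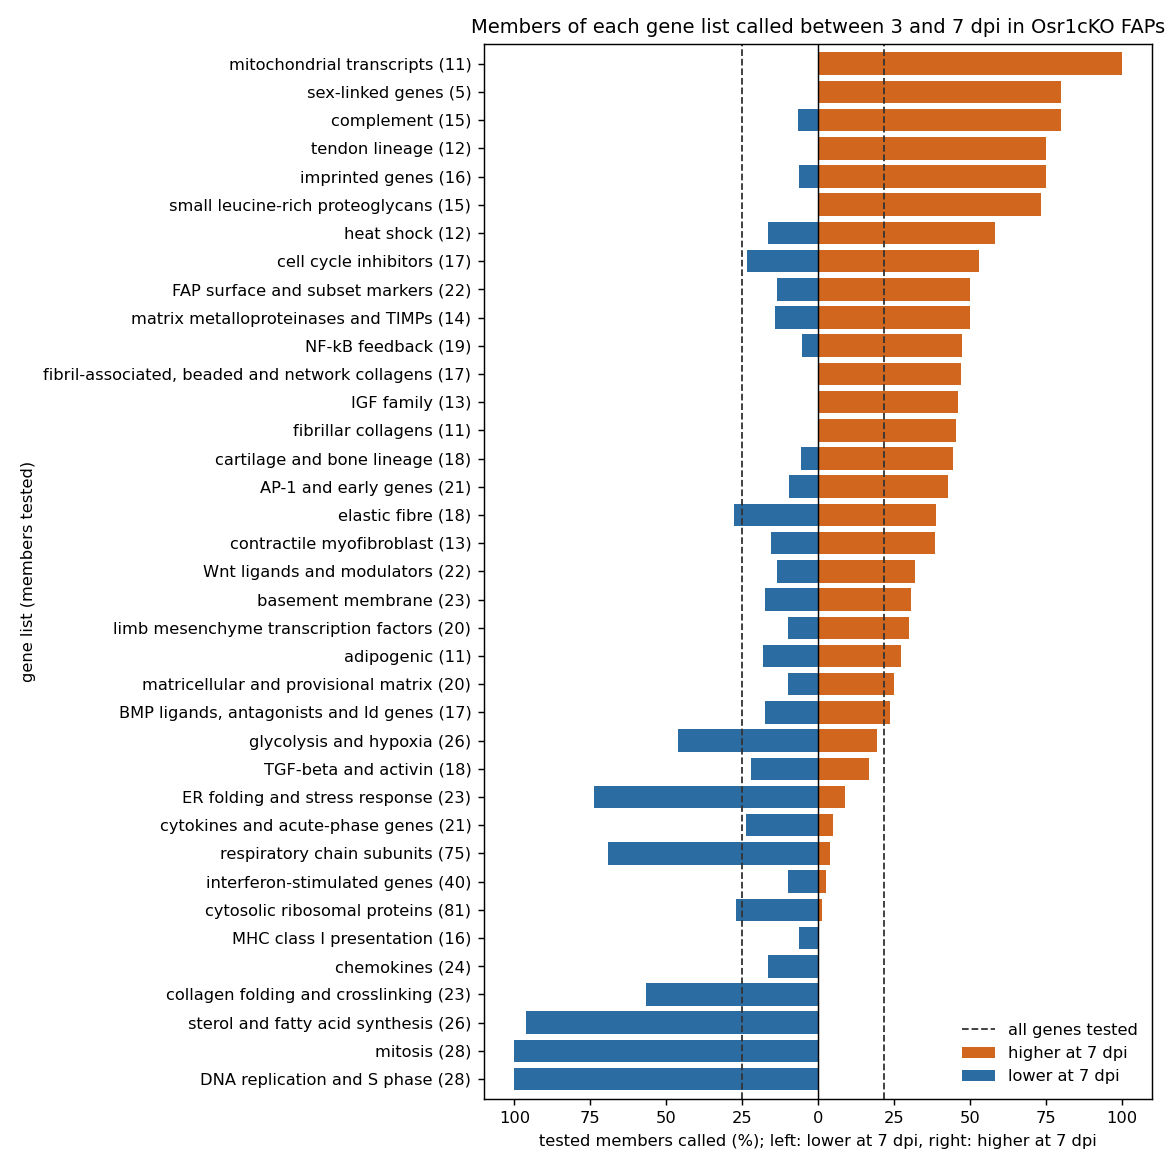
Percent of the tested members of each gene list called higher at 7 dpi (orange, to the right) or lower (blue, to the left) in Osr1cKO FAPs, with the number tested in brackets; dashed lines mark 21.7% and 25.1%, the shares over all genes tested. All 28 members of the mitosis list and all 28 of the DNA replication list lie on the left, and 12 of 15 complement genes on the right.

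Genes of cell division fell together. Every one of the 28 genes of DNA replication and S phase and every one of the 28 mitosis genes was called lower at 7 dpi, against 25.1% of all genes tested, with medians of -2.07 and -2.45 on the log2 scale. Both counts stayed at 28 without any 1 of the 4 libraries. Mcm5, a subunit of the replicative helicase, had 135 and 135 TPM at 3 dpi and 12.4 and 14.4 TPM at 7 dpi (-3.30 ± 0.10, limma adjusted p = 0.000965). Mcm3, of the same complex, had 116 and 116 TPM at 3 dpi and 16.7 and 13.1 TPM at 7 dpi (-2.95 ± 0.15). Rrm2, the small subunit of ribonucleotide reductase, which makes deoxynucleotides, fell from 208 and 235 to 30.9 and 33.3 TPM (-2.81 ± 0.09). The lowest 3 dpi value of each of these lay above the highest 7 dpi value, as the rule that picked them required. Plk1, the polo-like kinase of mitotic entry, had 152 and 163 TPM at 3 dpi and 15.6 and 11.6 TPM at 7 dpi (-3.51 ± 0.16, adjusted p = 0.000968). Ube2c, the ubiquitin-conjugating enzyme of the anaphase-promoting complex, had 88.9 and 102 TPM at 3 dpi and 8.92 and 8.77 TPM at 7 dpi (-3.35 ± 0.11). Aurka, the kinase of centrosomes and spindle poles, had 51.1 and 54.3 TPM at 3 dpi and 5.38 and 4.07 TPM at 7 dpi (-3.29 ± 0.16). Replicates of these genes differed by far less than the days did. Ube2c overlaps the muscle gene Tnnc2 on the other strand, and Tnnc2 moved the other way (0.296 and 0.668 to 3.51 and 2.47 TPM). Top2a, the topoisomerase that untangles chromosomes, fell from 90.7 and 115 to 9.31 and 10.8 TPM, and Asf1b, a histone chaperone, from 52.6 and 54.6 to 5.60 and 6.14 TPM.

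Many mitotic genes carry CCAAT boxes, bound by NF-Y, and a cell cycle homology region (CHR) close to their start. The promoters of the 3 mitosis genes of largest fall that had an entry and a match are shown because these genes fell together. Each is the 250 bases before the gene's start, 5′ to 3′ on the strand of the gene, from RefSeq (GRCm38.p6). Capitals mark CCAAT and TTTGAA on either strand.
Plk1 promoter, chr7:122159185-122159434, plus strand: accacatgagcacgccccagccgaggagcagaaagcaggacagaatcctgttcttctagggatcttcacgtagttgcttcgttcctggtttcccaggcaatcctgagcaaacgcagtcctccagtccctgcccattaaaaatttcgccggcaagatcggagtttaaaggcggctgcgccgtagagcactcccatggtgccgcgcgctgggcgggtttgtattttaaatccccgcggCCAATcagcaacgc
Ube2c promoter, chr2:164769679-164769928, plus strand: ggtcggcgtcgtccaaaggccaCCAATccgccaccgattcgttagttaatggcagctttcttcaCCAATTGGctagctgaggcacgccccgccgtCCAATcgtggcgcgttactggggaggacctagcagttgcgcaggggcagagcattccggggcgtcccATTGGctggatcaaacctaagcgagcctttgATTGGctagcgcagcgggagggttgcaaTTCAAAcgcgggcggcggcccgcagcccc
Aurka promoter, chr2:172370571-172370820, minus strand: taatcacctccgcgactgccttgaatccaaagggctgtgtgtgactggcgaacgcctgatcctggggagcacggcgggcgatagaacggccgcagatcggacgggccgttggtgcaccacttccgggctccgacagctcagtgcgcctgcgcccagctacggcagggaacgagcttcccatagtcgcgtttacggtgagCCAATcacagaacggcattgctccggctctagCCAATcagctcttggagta
With CCAAT and its reverse complement searched, 18 of the 23 mitosis genes with a promoter entry (78.3%) held a match, against 36.5% of the 11170 promoters of tested genes. The CHR letters TTTGAA were found in 7 of 23 (30.4%), against 10.6%. In the Ube2c promoter a match on each strand overlaps in CCAATTGG, which is counted once for each strand. A match is a description of these letters, not a bound site.

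Inhibitors of the cell cycle moved in both directions, beside 21.7% higher and 25.1% lower over all genes tested. Of 17, 9 were called higher and 4 lower, with a median of 0.59 (5 to 9 higher and 3 to 4 lower with 1 library left out). Cdkn1c, which encodes p57 and is imprinted, had 19.1 and 23.6 TPM at 3 dpi and 214 and 205 TPM at 7 dpi (3.18 ± 0.12, limma adjusted p = 0.000965), the largest rise of the list. Ccng2, a cyclin of quiescent cells, rose from 10.02 and 14.5 to 45.5 and 46.1 TPM. Cdkn1b, the p27 inhibitor of cyclin-dependent kinases, rose from 24.4 and 23.4 to 67.3 and 73.8 TPM, and the antiproliferative gene Btg1 from 114 and 146 to 333 and 370.3 TPM. The count that fell was near the share over all genes tested. Rbl1, the pocket protein p107, fell from 18.6 and 20.6 to 4.18 and 5.66 TPM and Cdkn2c from 35.9 and 36.6 to 13.4 and 17.1 TPM. Cdkn1a, the p53 target p21, had 208 and 238 TPM at 3 dpi and 246 and 321 TPM at 7 dpi and was not called (adjusted p = 0.157).

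Fibrillar collagens that were abundant at 3 dpi did not pass the test, and the members that rose were low-level chains. Of 11 genes 5 were called higher, against 21.7% of all genes, and 0 lower (median 0.37, 4 to 6 higher and 0 lower with 1 library left out). Col1a1, a chain of type I collagen, had 25017 and 20485 TPM at 3 dpi and 28084 and 24362 TPM at 7 dpi and was not called (adjusted p = 0.836). Col3a1, of type III collagen, had 11930.4 and 13468 TPM at 3 dpi and 17446 and 16702 TPM at 7 dpi (adjusted p = 0.482). Col11a1, a chain of the minor fibrils of cartilage and tendon, had 3.09 and 2.97 TPM at 3 dpi and 82.8 and 78.2 TPM at 7 dpi (4.28 ± 0.12, limma adjusted p = 0.000965). The days did not overlap for Col11a1, as the rule for called genes required, and did for Col1a1. Col24a1 rose from 5.02 and 5.16 to 23.97 and 26.6 TPM, and Col27a1 from 35.3 and 34.9 to 60.7 and 54.0 TPM. Col27a1 was no longer called in the fit of all 8 libraries (limma adjusted p = 0.174), where 3 of the 11 genes were called higher. Among the fibril-associated, beaded and network collagens 8 of 17 were called higher and 0 lower (median 0.84, 4 to 12 higher and 0 to 1 lower). Col6a6, a minor chain of type VI collagen, had 3.55 and 3.84 TPM at 3 dpi and 26.2 and 31.9 TPM at 7 dpi (2.62 ± 0.14). The main chain Col6a1 had 3033 and 2313 TPM at 3 dpi and 4031 and 4489.9 TPM at 7 dpi and missed the threshold (adjusted p = 0.082), but it was called higher with limma-voom, without further scaling, at a mean TPM of at least 1 and without the first 3 dpi library (adjusted p from 0.0216 to 0.0467). Col9a2, of cartilage type IX collagen, rose from 0.255 and 0.296 to 5.74 and 4.94 TPM, and the network collagen Col8a2 from 34.3 and 10.1 to 88.6 and 77.9 TPM. The median of this list was 0.49 without the second 3 dpi library. Col8a2 was no longer called without either 7 dpi library (limma adjusted p = 0.116 and 0.0957). Col8a2 had a log2 fold change of 2.86 without the first 3 dpi library and 1.16 without the second 3 dpi library.

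Small leucine-rich proteoglycans, which bind collagen fibrils and set their spacing, were called higher in 11 of 15. None of the 15 was called lower (median 1.29, 8 to 12 higher and 0 lower with 1 library left out). Lum, encoding lumican, had 464 and 469 TPM at 3 dpi and 1627 and 2021 TPM at 7 dpi (1.89 ± 0.14, limma adjusted p = 0.00135). Fmod, encoding fibromodulin, had 66.5 and 35.6 TPM at 3 dpi and 263 and 289 TPM at 7 dpi (2.42 ± 0.30). Chad, encoding chondroadherin, went from 0.0941 and 0.0909 to 1.24 and 3.90 TPM. The 7 dpi libraries were higher than both 3 dpi libraries in each, as the rule that picked them required. Chad, near 0 at 3 dpi, could pass the minimum level through the 7 dpi libraries alone, so its call is no support for a rise. Bgn, encoding biglycan and the highest of those not called, had 4852 and 3913 TPM at 3 dpi and 4239 and 4051 TPM at 7 dpi (adjusted p = 0.671), and Prelp had 394 and 423 TPM at 3 dpi and 425 and 565 TPM at 7 dpi.

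Genes that fold and crosslink collagen were lower or not called. Of 23, 13 were called lower, against 25.1% of all genes, and 0 higher (median -0.57, 0 to 4 higher and 7 to 14 lower with 1 library left out). Loxl4, a lysyl oxidase that crosslinks collagen and elastin, fell from 94.9 and 79.2 to 20.02 and 21.0 TPM (-2.09 ± 0.13), and its relative Loxl3 from 1006 and 619 to 256 and 206 TPM (-1.84 ± 0.27). Lox itself had 2317 and 2959 TPM at 3 dpi and 1178 and 894 TPM at 7 dpi (-1.41 ± 0.22, limma adjusted p = 0.00645). Plod3, a lysyl hydroxylase, had 473 and 376 TPM at 3 dpi and 211 and 189.8 TPM at 7 dpi (-1.13 ± 0.16). In each of these both 3 dpi libraries were above both 7 dpi libraries, as the rule that picked them required. Loxl2 was not called at 762 and 580.2 TPM at 3 dpi and 641 and 668 TPM at 7 dpi (adjusted p = 0.701), nor was the procollagen enhancer Pcolce at 1361 and 1219 TPM at 3 dpi and 1098 and 1168 TPM at 7 dpi. The 4 members called higher in that range came from leaving out the first 3 dpi library.

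Basement membrane genes, which encode the sheet around each myofiber and vessel, split, beside 21.7% higher and 25.1% lower over all genes tested. Of 23, 7 were called higher and 4 lower (median 0.06, 5 to 9 higher and 0 to 4 lower with 1 library left out). Col18a1, whose end fragment is endostatin, rose from 101 and 73.2 to 184 and 191 TPM (1.05 ± 0.17), and the muscle laminin chain Lama2 from 55.6 and 51.5 to 81.5 and 96.3 TPM (0.65 ± 0.11). Col4a1, of type IV collagen, fell from 1069.7 and 1101 to 849 and 825 TPM (-0.44 ± 0.12), and Col4a2, its neighbour on the other strand, from 782 and 819 to 606 and 588 TPM (-0.49 ± 0.11). The perlecan gene Hspg2 was not called at 669 and 699.6 TPM at 3 dpi and 643 and 601 TPM at 7 dpi, nor was the laminin chain Lamb1 at 344 and 348 TPM at 3 dpi and 359 and 350.0 TPM at 7 dpi. Col4a1 and Col4a2 were no longer called without either 7 dpi library (limma adjusted p from 0.0889 to 0.22). Lama2 was no longer called in the fit of all 8 libraries (limma adjusted p = 0.0867). The median of the list was -0.04 without the first and -0.06 without the second 3 dpi library, so its sign is not stable.

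Matricellular genes, whose products modulate adhesion rather than bear load, moved both ways. Of 20, 5 were called higher and 2 lower, shares near the background of 21.7% and below that of 25.1% (median -0.02). Ccn3 rose from 24.3 and 21.5 to 141 and 245 TPM (2.91 ± 0.25). Postn, encoding periostin, rose from 3050.1 and 1717 to 5339.9 and 5432 TPM (1.17 ± 0.33, limma adjusted p = 0.0364). Thbs4, a thrombospondin of tendon and muscle, had 1747 and 1552 TPM at 3 dpi and 2587 and 2868 TPM at 7 dpi (0.66 ± 0.17). The members that fell were both CCN genes. Ccn2, a target of TGFβ and YAP, fell from 1423 and 927 to 507 and 342 TPM (-1.53 ± 0.30) and Ccn5 from 483 and 505 to 199 and 221 TPM (-1.29 ± 0.09). Sparc, encoding osteonectin, had 9352 and 7706 TPM at 3 dpi and 10159 and 9918 TPM at 7 dpi and Fn1, encoding fibronectin, 3675 and 2307 TPM at 3 dpi and 4724 and 4942 TPM at 7 dpi, neither called. Tnc, encoding tenascin C, had 6216 and 2819 TPM at 3 dpi and 2147 and 1558 TPM at 7 dpi (adjusted p = 0.0635). Tnc was called lower with limma-voom (adjusted p = 0.0372) and without either 3 dpi library, with log2 fold changes of -0.69 and -1.86. Fn1 was called higher without the first 3 dpi library (0.998, adjusted p = 0.00907). The 3 dpi replicates of this list differed by a median of 0.54 on the log2 scale, against 0.11 at 7 dpi, and the first 3 dpi library was the higher in 16 of 20 genes. Without the second 3 dpi library 3 were called higher and 8 lower, and without the first 8 and 4, against 3 and 2 without the first 7 dpi library and 2 and 1 without the second. Postn and Thbs4 were no longer called without the second 3 dpi library or either 7 dpi library (limma adjusted p from 0.0512 to 0.113). Thbs4 was not called in the fit of all 8 libraries either (adjusted p = 0.0728). Ccn2 was no longer called without the second 7 dpi library (limma adjusted p = 0.0675).

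Elastic fibre genes moved in both directions, 7 of 18 higher and 5 lower (median 0.46, 6 to 9 higher and 2 to 6 lower with 1 library left out). Mfap2, a microfibril-associated glycoprotein, rose from 95.4 and 73.2 to 404 and 411 TPM (2.21 ± 0.15). Mfap4, an elastin-binding protein, rose from 202 and 108 to 682 and 679 TPM (2.14 ± 0.30) and the fibulin Fbln7 from 28.2 and 18.2 to 117 and 123 TPM (2.29 ± 0.21). Over all genes tested 21.7% were called higher and 25.1% lower, so the count of elastic fibre genes that fell lay near the background. Fbn1, the fibrillin that builds the microfibril, had 1747 and 1688 TPM at 3 dpi and 1127 and 1183 TPM at 7 dpi (-0.64 ± 0.14). Ltbp2, a latent TGFβ binding protein, fell from 552 and 461 to 176 and 116 TPM (-1.87 ± 0.24), and the fibulin Fbln2 from 1613 and 1673 to 1042 and 744 TPM. Mfap5 was not called at 534 and 307 TPM at 3 dpi and 533 and 621 TPM at 7 dpi. It was called higher without the first 3 dpi library (log2 fold change 0.84, adjusted p = 0.000571). Fbn1 was no longer called without either 7 dpi library (limma adjusted p = 0.101 and 0.103). Fbln2 was no longer called without the second 7 dpi library (limma adjusted p = 0.0821).

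Of the 14 matrix metalloproteinase and TIMP genes tested, of 16 listed, 7 were called higher and 2 lower (median 0.86, 5 to 10 higher and 1 to 3 lower with 1 library left out). Beside Mmp13, Mmp2, the gelatinase of fibroblasts, had 1164 and 1528 TPM at 3 dpi and 2979 and 3334 TPM at 7 dpi (1.18 ± 0.19, limma adjusted p = 0.00714). Mmp10, a stromelysin, rose from 2.89 and 0.931 to 9.60 and 11.2 TPM, and Mmp19 fell from 392 and 402 to 313 and 238 TPM. The inhibitors moved in opposite directions. Timp1 fell from 4553 and 4335 to 1665 and 1194 TPM (-1.72 ± 0.24, adjusted p = 0.00458), while Timp2 rose from 414 and 381 to 1281 and 1617 TPM (1.79 ± 0.15). Timp1 was above Timp2 in both 3 dpi libraries, and at 7 dpi their levels overlapped. Mmp3, another stromelysin, had 120.1 and 286 TPM at 3 dpi and 187 and 238 TPM at 7 dpi and was not called, its 3 dpi libraries lying on either side of those of 7 dpi. Without the first 3 dpi library it was called lower (log2 fold change -0.50, adjusted p = 0.0125). Mmp10 and Mmp19 were no longer called without the second 7 dpi library (limma adjusted p = 0.0519 and 0.156).

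**Figure D3:**
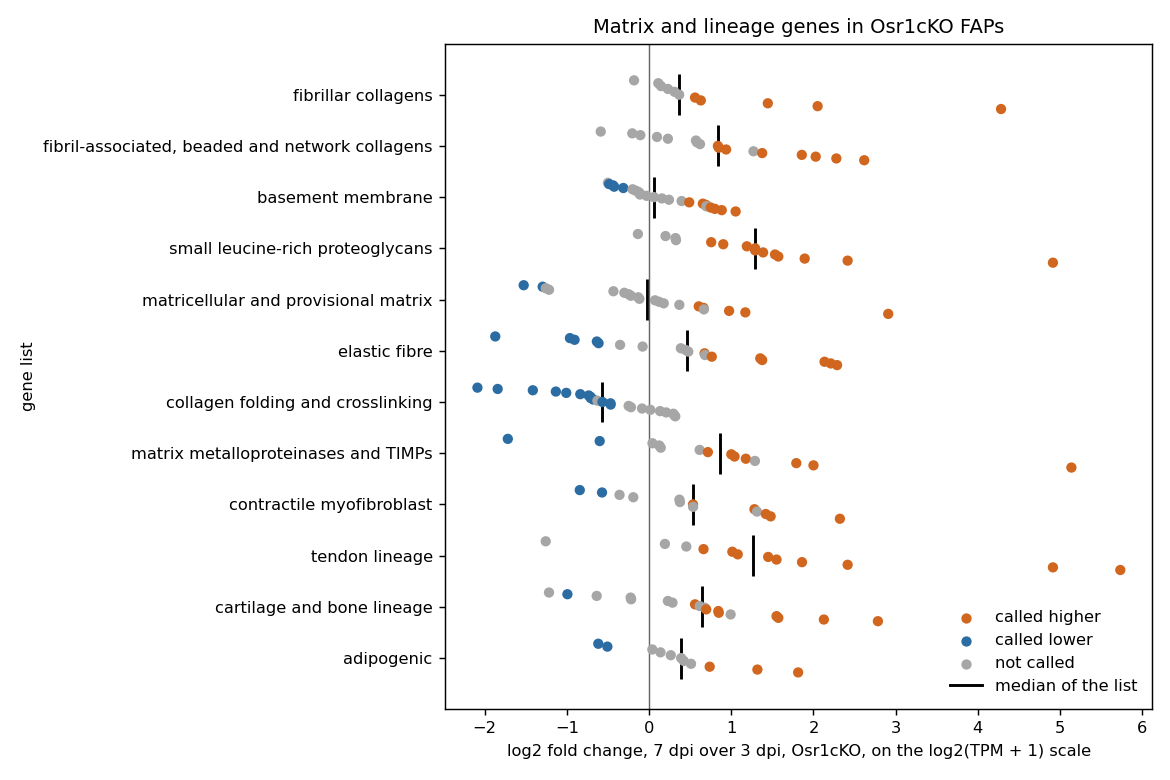
Log2 fold change of 7 dpi over 3 dpi in Osr1cKO FAPs, on the log2(TPM + 1) scale, for each tested member of 12 matrix and lineage lists; orange points were called higher, blue lower and grey not called, and black bars are list medians. The median is 1.29 for small leucine-rich proteoglycans and 1.26 for tendon genes, and -0.57 for collagen folding and crosslinking.

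Tendon genes were among the largest rises. Of 12, 9 were called higher and 0 lower (median 1.26, 5 to 11 higher and 0 to 1 lower with 1 library left out). Beside Tnmd and Kera, Scx, the transcription factor of tendon progenitors, had 5.83 and 2.89 TPM at 3 dpi and 12.9 and 26.3 TPM at 7 dpi (1.86 ± 0.40, limma adjusted p = 0.0164). Comp, a matrix protein of tendon and cartilage, rose from 38.9 and 42.0 to 102 and 155 TPM. Mkx, a homeobox factor of tendon, rose from 5.98 and 3.95 to 10.5 and 12.2 TPM. Both factors stayed under 30 TPM while Comp and Tnmd passed 100 TPM at 7 dpi. Egr1 and Tnc, which are in the list as well, were not called over all 4 libraries, but Egr1 was called higher without the first 3 dpi library (0.74, adjusted p = 0.0108). Scx was no longer called without the second 7 dpi library (limma adjusted p = 0.0703). The median was 1.84 with limma-voom and 1.82 with a pseudocount of 0.1, and several members were low at 3 dpi.

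Cartilage and bone genes rose in part. Of the 18 tested, 8 were called higher and 1 lower (median 0.65, 4 to 9 higher and 0 to 3 lower with 1 library left out), and 4 of the 22 listed were too low to test. The median was 1.40 with limma-voom and 1.19 with a pseudocount of 0.1. Low members could pass the minimum level through the 7 dpi libraries alone, so the filter bears on the count higher. Without the first 7 dpi library 14 members passed that level, and without the second 13. Acan, encoding the cartilage proteoglycan aggrecan, had 0.889 and 1.31 TPM at 3 dpi and 10.5 and 18.2 TPM at 7 dpi (2.78 ± 0.27). Matn4, a matrilin, had 0.305 and 0.266 TPM at 3 dpi and 4.30 and 5.23 TPM at 7 dpi (2.13 ± 0.15). Both were low at either day against the fibroblast collagens. The chondrogenic factor Sox9 was not called, with 89.6 and 128 TPM at 3 dpi and 95.5 and 95.7 TPM at 7 dpi. Runx2, the factor of bone and hypertrophic cartilage, fell from 66.6 and 40.1 to 26.4 and 26.8 TPM (-0.99 ± 0.25). Spp1, encoding osteopontin, had 2252 and 859.9 TPM at 3 dpi and 793 and 492 TPM at 7 dpi and was not called (adjusted p = 0.103). Without the first 3 dpi library Sox9 was called lower (-0.48, adjusted p = 0.005), as was Spp1 without the second (-1.95, adjusted p = 0.000114). Runx2 was no longer called without either 7 dpi library (limma adjusted p = 0.106 and 0.121).

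Of 11 adipogenic genes tested, of 18 listed, 3 were called higher and 2 lower, against 21.7% and 25.1% of all genes tested (median 0.39, 1 to 5 higher and 0 to 2 lower with 1 library left out). Cd36, a fatty acid transporter, had 0.198 and 0 TPM at 3 dpi and 2.37 and 3.57 TPM at 7 dpi (1.81 ± 0.19). At 0 TPM in the second 3 dpi library, Cd36 could not pass the minimum level without a 7 dpi library. Its call is thus no support for a rise. Cebpd, an early factor of fat differentiation, had 97.2 and 95.5 TPM at 3 dpi and 167 and 170.1 TPM at 7 dpi (0.74 ± 0.08, limma adjusted p = 0.00269). Fabp4, a fatty acid carrier of fat cells, went from 0.827 and 3.32 to 6.90 and 5.59 TPM, and Plin2, a lipid droplet protein, fell from 102 and 76.8 to 56.4 and 63.6 TPM. Pparg, the main regulator of fat cells, had 1.66 and 1.89 TPM at 3 dpi and 1.94 and 2.36 TPM at 7 dpi and was not called. The adipocyte genes Adipoq, Plin1 and Cidec were too low to test. Fabp4 and Plin2 were no longer called without either 7 dpi library (limma adjusted p from 0.114 to 0.171). Fabp4 was not called either with a pseudocount of 0.1, at a mean TPM of at least 1 or in the fit of all 8 libraries (adjusted p from 0.0528 to 0.294). Fabp4 had a log2 fold change of 0.69 without the first 3 dpi library and 1.92 without the second 3 dpi library.

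Contractile genes of myofibroblasts gave counts that depended on single libraries of both days. Of 13, 5 were called higher and 2 lower (median 0.53, 1 to 9 higher and 0 to 4 lower with 1 library left out). Acta2, encoding smooth muscle actin, had 709 and 276 TPM at 3 dpi and 677 and 527 TPM at 7 dpi and was not called (adjusted p = 0.537). It was called higher without the first 3 dpi library (log2 fold change 1.04, adjusted p = 0.000574), and without the second its sign turned (-0.34, adjusted p = 0.13). Actg2, another smooth muscle actin, rose from 6.90 and 1.91 to 23.4 and 24.5 TPM and Myl9, a myosin light chain, from 134 and 59.0 to 275 and 248 TPM. Tagln2, a transgelin, fell from 1369 and 1308 to 789 and 769 TPM. The first 3 dpi library was above the second for Acta2, Actg2 and Myl9. Mural cell markers, of which Acta2 and Myh11 are members too, summed to 769.8 and 313 TPM at 3 dpi and 766 and 649 TPM at 7 dpi. Of 8, 5 were called higher, Rgs5 and Mcam among them, against 21.7% of all genes tested. The part of mural cells in these values was not tested. Endothelial markers were called higher in 8 of 10, against the same share, Pecam1 going from 0.584 and 0.736 to 4.77 and 6.25 TPM. Eng, which fibroblasts make too, fell from 312 and 224 to 134 and 126 TPM. The endothelial markers together, Eng included, summed to 330 and 243 TPM at 3 dpi and to the lower 187 and 203 TPM at 7 dpi. Without the second 3 dpi library the contractile median was 0.10, with 4 members called higher and 4 lower. Actg2 and Myl9 were no longer called without either 7 dpi library (limma adjusted p from 0.0613 to 0.112). Tagln2 and Eng were no longer called without the second 7 dpi library (limma adjusted p = 0.055 and 0.0591). Actg2 had a log2 fold change of 3.05 without the first 3 dpi library and 1.57 without the second 3 dpi library. Myl9 had a log2 fold change of 0.86 without the second 3 dpi library.

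Interferon-stimulated genes differed more between the 3 dpi libraries than between the days. Of 40 tested, 1 was called higher and 4 lower, below the background shares of 21.7% and 25.1% (median -0.79). In all 40 the first 3 dpi library was above the second. The first library was above both 7 dpi libraries in 39 of 40, and the second was above both in 17 and below both in 16. Replicates differed by a median of 1.57 at 3 dpi and 0.22 at 7 dpi on the log2 scale, so the spread sits at 3 dpi. Bst2, or tetherin, which holds virions at the cell surface, had 1903 and 485 TPM at 3 dpi and 297 and 379 TPM at 7 dpi and was not called (adjusted p = 0.0926). It was called lower without the first 3 dpi library (log2 fold change -0.60, adjusted p = 0.00684) and without the second (-2.60, adjusted p = 1.2e-06). Isg15, an antiviral ubiquitin-like protein, had 1196 and 315 TPM at 3 dpi and 157 and 195 TPM at 7 dpi (adjusted p = 0.055), and Ifitm3, a membrane restriction factor, 5957 and 4113 TPM at 3 dpi and 3145 and 3265 TPM at 7 dpi. In each the first 3 dpi library was the highest of the 4. Ifitm3 was called lower with limma-voom (adjusted p = 0.0283) and without the second 3 dpi library (adjusted p = 0.00951). Oasl1, of the oligoadenylate synthetase family, fell from 119.6 and 32.5 to 11.7 and 11.9 TPM (-2.37 ± 0.59, limma adjusted p = 0.0244) and Oas3 from 18.9 and 4.74 to 1.49 and 1.28 TPM (-2.21 ± 0.59, adjusted p = 0.0295). Dhx58, a regulator of RNA sensing, fell from 80.7 and 33.7 to 15.7 and 18.5 TPM. Irf1, an interferon regulatory factor that other cytokines also induce, was the member called higher (80.7 and 50.9 TPM at 3 dpi and 161 and 237 TPM at 7 dpi, 1.53 ± 0.27). Oasl1, Oas3 and Dhx58 were no longer called without either 7 dpi library (limma adjusted p from 0.0967 to 0.125). Oas3 was not called with limma-voom either (adjusted p = 0.05004). Oasl1 had a log2 fold change of -1.45 without the first 3 dpi library and -3.33 without the second 3 dpi library. Oas3 had a log2 fold change of -1.32 without the first 3 dpi library and -3.15 without the second 3 dpi library. Dhx58 had a log2 fold change of -1.01 without the first 3 dpi library and -2.27 without the second 3 dpi library. Without the second 3 dpi library 37 of 40 were called lower. Without either 7 dpi library 1 was called higher and 0 lower. Without the first 3 dpi library 10 were called higher and 8 lower, so the direction of the list rests on the first 3 dpi library.

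Interferon-stimulated response elements hold a core of GAAA, any 2 bases and GAAA again. The promoter of Oas3, the called member of this list with an entry and a match, is shown with that core in capitals, as the 250 bases before its start (RefSeq, GRCm38.p6).
Oas3 promoter, chr5:120777660-120777909, minus strand: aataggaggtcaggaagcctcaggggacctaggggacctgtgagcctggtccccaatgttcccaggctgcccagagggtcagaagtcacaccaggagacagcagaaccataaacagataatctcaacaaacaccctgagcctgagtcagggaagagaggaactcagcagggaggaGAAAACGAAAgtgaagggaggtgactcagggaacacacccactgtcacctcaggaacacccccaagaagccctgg
With both strands searched, 16 of the 31 interferon-stimulated genes with a promoter entry (51.6%) held the core, against 2.61% of the 11170 promoters of tested genes.

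MHC class I genes, whose products present peptides to T cells, showed the same order at 3 dpi. Of 16, 0 were called higher and 1 lower (median 0.19). The first 3 dpi library was above the second in all 16. B2m, the light chain of class I molecules, had 3854 and 1379.7 TPM at 3 dpi and 4753 and 6334 TPM at 7 dpi (adjusted p = 0.114). H2-D1, a heavy chain, had 1129 and 465 TPM at 3 dpi and 1680.0 and 1979 TPM at 7 dpi (adjusted p = 0.0591). Their 7 dpi libraries lay above both 3 dpi libraries, the second one most. Without the first 3 dpi library B2m and H2-D1 were called higher (adjusted p = 0.000212 and 1.41e-05). H2-D1 was called higher also without the second, with limma-voom and in the fit of all 8 libraries (adjusted p from 0.0231 to 0.0432). Psmb10, a subunit of the immunoproteasome, was called lower (129 and 74.4 TPM at 3 dpi and 38.7 and 40.5 TPM at 7 dpi, -1.35 ± 0.27). Without the first 3 dpi library 10 were called higher and 2 lower, without the second 2 higher and 9 lower, and without either 7 dpi library 0 and 0. Psmb10 was no longer called without either 7 dpi library (limma adjusted p = 0.0659 and 0.0702).

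**Figure D4:**
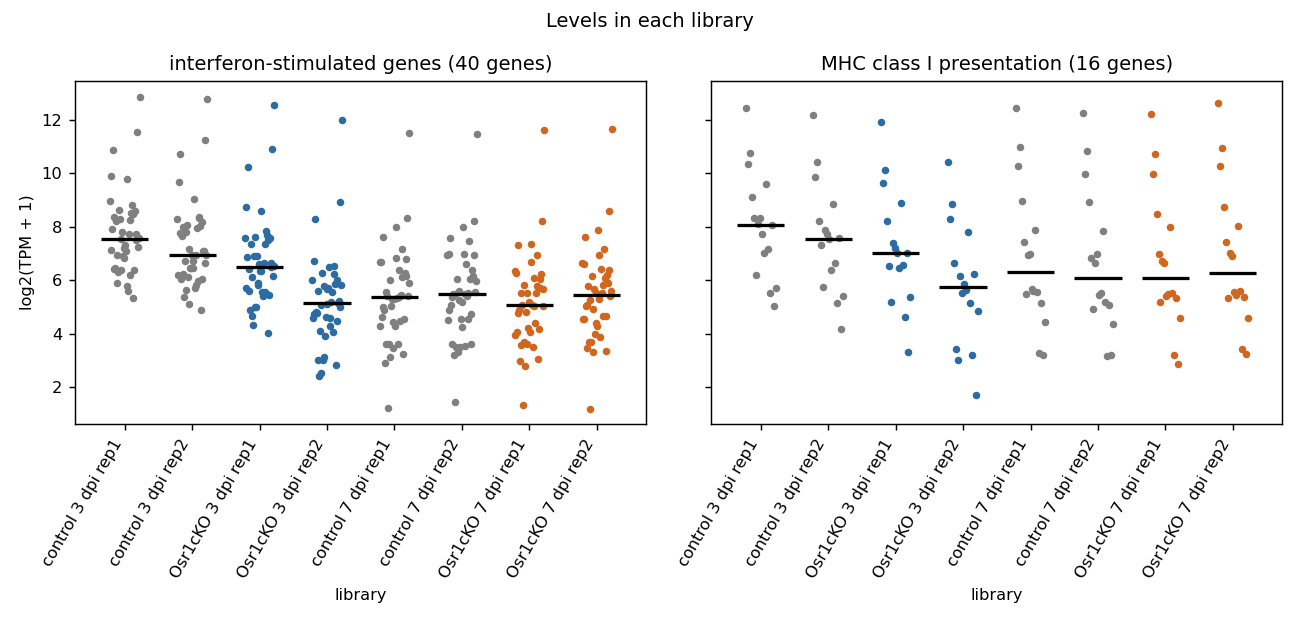
Level as log2(TPM + 1) of each interferon-stimulated gene (left, 40 genes) and each MHC class I presentation gene (right, 16 genes) in all 8 libraries; grey points are control, blue Osr1cKO at 3 dpi and orange Osr1cKO at 7 dpi, and black bars are medians. The median of the interferon-stimulated genes was 6.50 and 5.13 in the Osr1cKO libraries at 3 dpi and 5.07 and 5.46 at 7 dpi.

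Of the 24 chemokine genes tested, of 32 listed, 0 were called higher and 4 lower (median -0.14), both under the background. Ccl2, which draws monocytes, had 2153 and 2173 TPM at 3 dpi and 899 and 916 TPM at 7 dpi (-1.31 ± 0.14, limma adjusted p = 0.00225). Cxcl14 fell from 2236 and 2665 to 633 and 525 TPM (-2.14 ± 0.18, adjusted p = 0.00146), and Ccl9 from 21.7 and 32.9 to 13.0 and 10.2 TPM. Others as abundant did not pass. The neutrophil chemokine Cxcl1 had 2166 and 3189.8 TPM at 3 dpi and 2421 and 2643 TPM at 7 dpi and Ccl7, another monocyte chemokine, 1425 and 1427 TPM at 3 dpi and 1111 and 1323 TPM at 7 dpi. Without the second 3 dpi library 10 were called lower and 2 higher, and without the first 8 and 4, against 3 and 1 without the first 7 dpi library and 2 and 0 without the second. Ccl9 was no longer called without the second 7 dpi library (limma adjusted p = 0.0696).

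Of 21 cytokine and acute-phase genes, 1 was called higher and 5 lower (median -0.12). The first count is below the 21.7% and the second near the 25.1% of all genes tested. Csf1, the growth factor of macrophages, had 737 and 807 TPM at 3 dpi and 169 and 214 TPM at 7 dpi (-2.07 ± 0.13, limma adjusted p = 0.0012). Il11, a cytokine that signals through gp130, fell from 129 and 143 to 32.8 and 19.2 TPM (-2.45 ± 0.26), and Lif, of the same family, from 264 and 249 to 90.4 and 84.1 TPM (-1.61 ± 0.10). Il4ra, the receptor of type 2 cytokines, fell from 336 and 456 to 201 and 172 TPM. The days did not overlap for these genes, as the rule that picked them required. Il1b, the member called higher, stayed under 1.5 TPM (0.332 and 0.04 TPM at 3 dpi and 1.42 and 1.47 TPM at 7 dpi), and Ptgs2, which makes prostaglandins, was not called at 684 and 580.0 TPM at 3 dpi and 783 and 943 TPM at 7 dpi but was called higher without the first 3 dpi library (0.50, adjusted p = 0.0224). Ptx3, a pentraxin, had 445 and 1655 TPM at 3 dpi and 739 and 739 TPM at 7 dpi. Without the second 3 dpi library Ptx3 was called higher (log2 fold change 0.63, adjusted p = 0.00335), and the list had 7 higher and 7 lower. Without the first, 2 were called higher and 10 lower, and the median of the list changed from 0.16 to -0.51 between those fits. Without the first and the second 7 dpi library 0 and 1 were called higher and 5 and 4 lower.

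Complement genes, several of which fibroblasts make, rose in 12 of 15 tested, against 21.7% of all genes, and fell in 1 (median 1.15, 10 to 12 higher and 0 to 1 lower with 1 library left out). C1s1, a protease of the first complement component, had 318 and 277 TPM at 3 dpi and 980.0 and 1194 TPM at 7 dpi (1.799 ± 0.14, limma adjusted p = 0.00141). The component C4b rose from 91.7 and 63.4 to 201 and 345 TPM. C7, of the membrane attack complex, had 2.89 and 7.05 TPM at 3 dpi and 42.9 and 17.3 TPM at 7 dpi (2.28 ± 0.53), its 7 dpi libraries lying far apart. C3, the central component, rose from 996 and 929.9 to 1798 and 2173 TPM. Cfb, of the alternative pathway, fell from 54.5 and 42.1 to 34.8 and 32.7 TPM (-0.56 ± 0.16). Among the macrophage markers that were higher at 7 dpi, C1qa had 1.82 and 0.294 TPM at 3 dpi and 8.80 and 6.40 TPM at 7 dpi and Lyz2 8.47 and 2.55 TPM at 3 dpi and 19.5 and 36.1 TPM at 7 dpi, and their part in the complement values was not tested. C7 was no longer called without the first 7 dpi library (limma adjusted p = 0.0654). In the fit of all 8 libraries it was not called either (adjusted p = 0.0558). Cfb was no longer called without either 7 dpi library (limma adjusted p = 0.114 and 0.2). C7 had a log2 fold change of 1.67 without the first 7 dpi library and 2.99 without the second 7 dpi library.

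Feedback genes of NF-κB rose in 9 of 19 and fell in 1 (median 0.40, 4 to 9 higher and 0 to 2 lower with 1 library left out). Tnfaip3, encoding the inhibitor A20, had 44.0 and 43.9 TPM at 3 dpi and 88.0 and 129 TPM at 7 dpi (1.195 ± 0.17, limma adjusted p = 0.00458). The adhesion molecule Icam1 rose from 119.5 and 138 to 203 and 255 TPM, and Vcam1 from 68.4 and 71.0 to 115 and 133 TPM, a call lost in the fit of all 8 libraries (limma adjusted p = 0.101). Nfkbia, the prompt inhibitor, was not called at 999 and 968 TPM at 3 dpi and 1073 and 1413 TPM at 7 dpi. AP-1 and early genes, which also respond to dissociation of tissue, were called higher in 9 of 21 and lower in 2 (3 to 12 higher and 1 to 3 lower with 1 library left out). Atf3, a stress-induced factor, rose from 321 and 269 to 959 and 1491 TPM (1.96 ± 0.22), and Klf2 from 199 and 177 to 489 and 519 TPM. Nr4a1, an immediate early receptor, fell from 1094 and 1107 to 713 and 914 TPM. Fos was high at both days, with 2435 and 1354 TPM at 3 dpi and 3099.5 and 3836 TPM at 7 dpi, and was not called (adjusted p = 0.0826), but was higher without the first 3 dpi library (1.28, adjusted p = 0.00105). Of the heat shock genes 7 of 12 rose and 2 fell (5 to 7 higher and 1 to 2 lower with 1 library left out). Hspa1b, the inducible chaperone, had 110.4 and 122 TPM at 3 dpi and 628 and 955 TPM at 7 dpi (2.67 ± 0.19). Its near-identical neighbour Hspa1a went from 78.9 and 78.0 to 392 and 601 TPM, and reads of the 2 copies cannot be kept apart with certainty. The members that fell are mitochondrial chaperones, Hspd1 from 538 and 632 to 272 and 297 TPM and Hspe1 from 228 and 229 to 162 and 185 TPM. Nr4a1 and Hspe1 were no longer called without either 7 dpi library (limma adjusted p from 0.0651 to 0.243). Nr4a1 was not called without further scaling either (adjusted p = 0.0633).

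Of 13 IGF family genes, 6 were called higher and 0 lower (median 0.70, 5 to 7 higher and 0 to 2 lower with 1 library left out). Igf1, the ligand that promotes muscle growth, had 44.1 and 54.6 TPM at 3 dpi and 149.7 and 209 TPM at 7 dpi (1.76 ± 0.17, limma adjusted p = 0.00194). The binding protein Igfbp5 rose from 218 and 176 to 566 and 1029 TPM and Igfbp4 from 537 and 649 to 1310.1 and 1505 TPM. The receptors were not called. Igf1r had 21.9 and 24.8 TPM at 3 dpi and 19.6 and 16.6 TPM at 7 dpi (adjusted p = 0.0644) and the clearance receptor Igf2r 186 and 163 TPM at 3 dpi and 183 and 185 TPM at 7 dpi. Among Wnt ligands and modulators 7 of 22 were called higher and 3 lower (median 0.23, 5 to 9 higher and 1 to 6 lower). The shares over all genes tested were 21.7% higher and 25.1% lower. The ligand Wnt10b rose from 1.46 and 0.853 to 6.24 and 11.8 TPM and Rspo2, an agonist, from 0.294 and 0.269 to 5.02 and 9.69 TPM. The antagonist Sfrp4 rose from 18.6 and 13.7 to 75.5 and 159 TPM (2.64 ± 0.35) and Dkk3 from 20.7 and 21.3 to 128 and 154 TPM (2.63 ± 0.10). On the other side, the ligand Wnt2 fell from 21.1 and 20.4 to 5.63 and 9.14 TPM, Wnt5a from 27.9 and 22.5 to 19.2 and 15.4 TPM and the antagonist Sfrp2 from 1142 and 1902 to 539 and 650.0 TPM. Ligands and antagonists were thus found in both directions, and the pathway target Axin2 rose from 1.54 and 1.40 to 3.61 and 4.40 TPM. Wnt5a was no longer called without the first 3 dpi library or either 7 dpi library (limma adjusted p from 0.0707 to 0.263). It was not called at a mean TPM of at least 1 or under either of the other scalings (adjusted p from 0.0534 to 0.0614). Sfrp2 was no longer called without the first 7 dpi library (limma adjusted p = 0.0641).

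TGFβ and activin genes were called higher in 3 of 18 and lower in 4, both under the background shares (median 0.03, 0 to 4 higher and 4 to 7 lower with 1 library left out). Of the ligands, Tgfb1 had 95.8 and 54.0 TPM at 3 dpi and 56.8 and 51.7 TPM at 7 dpi and was not called (adjusted p = 0.222). Tgfb2 rose from 86.3 and 73.9 to 113 and 114 TPM (0.44 ± 0.11), and Tgfb3 had 176 and 94.2 TPM at 3 dpi and 221 and 252 TPM at 7 dpi (adjusted p = 0.0789). The receptors Tgfbr1 and Tgfbr2 had log2 fold changes of 0.12 and 0.16 and were not called. Smad7, the inhibitory Smad and a target that feeds back on the pathway, fell from 173 and 192 to 105 and 113 TPM (-0.81 ± 0.09). The activin inhibitor Fstl3 fell from 47.4 and 57.8 to 19.4 and 15.9 TPM. Another target, Tgfbi, had 455 and 365 TPM at 3 dpi and 509 and 621 TPM at 7 dpi and was not called, except without the first 3 dpi library (0.55, adjusted p = 0.00907). Among the BMP genes 4 of 17 rose and 3 fell (4 to 5 higher and 2 to 4 lower with 1 library left out). Those counts lie near or below the 21.7% and 25.1% of all genes tested. The ligand Bmp4 rose from 13.7 and 15.9 to 26.1 and 30.2 TPM and the antagonist Grem1 from 0.724 and 0.46 to 3.36 and 4.47 TPM. The ligand Bmp6 fell from 25.4 and 29.1 to 11.0 and 16.7 TPM. The Id genes, direct BMP targets, did not move together. Id1 fell from 152 and 151 to 66.1 and 74.9 TPM (-1.16 ± 0.09), Id2 rose from 24.1 and 24.3 to 56.0 and 69.5 TPM (1.27 ± 0.11) and Id3 was not called at 326 and 327 TPM at 3 dpi and 332 and 389 TPM at 7 dpi. Tgfb2 was no longer called without either 7 dpi library (limma adjusted p = 0.102 and 0.0891). Fstl3 and Bmp4 were no longer called in the fit of all 8 libraries (limma adjusted p = 0.0528 and 0.0715).

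Imprinted genes, expressed from 1 parental allele and high in growing mesenchyme, rose in 12 of 16 and fell in 1 (median 1.35, 11 to 14 higher and 0 to 1 lower with 1 library left out). Beside Cdkn1c and Mest, the noncoding Meg3 had 34.5 and 22.9 TPM at 3 dpi and 228 and 206 TPM at 7 dpi (2.84 ± 0.21, limma adjusted p = 0.00135). Dlk1, a Notch-related inhibitor of fat differentiation from the same locus, rose from 6.08 and 4.77 to 43.2 and 32.9 TPM (2.54 ± 0.21). H19, a noncoding RNA beside Igf2, rose from 579 and 454 to 2074 and 1639 TPM (1.78 ± 0.21). Igf2 itself was under 3 TPM in all 4 libraries (0.718 and 0.787 TPM at 3 dpi and 1.98 and 2.66 TPM at 7 dpi), far under H19. Plagl1, a zinc finger factor of this gene network, rose from 41.6 and 60.4 to 150.4 and 144 TPM. Ndn was the member that fell, from 97.2 and 95.4 to 67.7 and 74.7 TPM, and Grb10 was not called at 172 and 231 TPM at 3 dpi and 255 and 264 TPM at 7 dpi, except without the second 3 dpi library (0.49, adjusted p = 0.0051). Ndn was no longer called without either 7 dpi library (limma adjusted p = 0.0805 and 0.0603).

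FAP surface and subset markers, some of which separate the adventitial, stem-like fibroblasts from those of the endomysium, were called higher more often than lower. Of 22, 11 were called higher and 3 lower (median 0.80, 9 to 13 higher and 0 to 4 lower with 1 library left out). Cd55, an adventitial marker, had 17.4 and 20.3 TPM at 3 dpi and 60.4 and 111 TPM at 7 dpi (2.002 ± 0.27). Clec3b, of the same subset, rose from 245 and 267 to 821 and 1219.8 TPM (1.90 ± 0.19, limma adjusted p = 0.00197), and Gsn, encoding gelsolin, from 1531 and 1603 to 4598 and 6868 TPM. The adventitial markers Dpp4 and Pi16, named after their values were seen, went the same way, Dpp4 from 6.10 and 7.14 to 19.005 and 35.5 TPM and Pi16 from 111 and 148 to 209 and 389 TPM. In each of these the second 7 dpi library was the highest. The general FAP markers Lum and Dcn, also in this list, were higher at 7 dpi too, so the rises were not limited to adventitial markers. A shift between subsets was not tested. The receptor Pdgfra had a log2 fold change of -0.47 ± 0.14, and its relative Pdgfrb fell from 373 and 284 to 205 and 203 TPM (-0.73 ± 0.16). Ly6a, the Sca-1 antigen, was not called at 3058 and 2020.1 TPM at 3 dpi and 1357 and 1839.7 TPM at 7 dpi (adjusted p = 0.0832). It was called lower with limma-voom (adjusted p = 0.0463) and without the second 3 dpi library (-1.05, adjusted p = 0.00277). Pdgfra was no longer called without the second 3 dpi library or either 7 dpi library (limma adjusted p from 0.051 to 0.205). Its call was lost as well without further scaling, with median ratio size factors and at a mean TPM of at least 1 (adjusted p from 0.0513 to 0.0801). Pdgfrb was no longer called without either 7 dpi library (limma adjusted p = 0.0799 and 0.108).

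Limb mesenchyme transcription factors spanned a narrow range, and their counts stand beside 21.7% higher and 25.1% lower over all genes tested. Of 20, 6 were called higher and 2 lower, with log2 fold changes from -0.77 to 0.96 (3 to 6 higher and 0 to 2 lower with 1 library left out). Shox2, of the proximal limb, rose from 36.2 and 41.0 to 74.7 and 84.3 TPM. Osr2, the paralog of Osr1, rose from 66.0 and 67.7 to 110.3 and 142 TPM (0.83 ± 0.12). Prrx1, the factor that marks limb mesenchyme, fell from 110.1 and 117 to 96.1 and 95.7 TPM (-0.30 ± 0.08), and Twist1 was not called at 121 and 132 TPM at 3 dpi and 118 and 142 TPM at 7 dpi. Prrx1 was no longer called without the second 3 dpi library or either 7 dpi library (limma adjusted p from 0.0505 to 0.249). Its call was lost as well without further scaling and at a mean TPM of at least 1 (adjusted p = 0.0617 and 0.0621).

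Genes of sterol and fatty acid synthesis fell. Of 26, 25 were called lower and 0 higher (median -0.82). Fdps, which makes farnesyl diphosphate, fell from 12.5 and 11.9 to 3.76 and 3.17 TPM (-1.62 ± 0.16, limma adjusted p = 0.00208). Fasn, the fatty acid synthase, fell from 143 and 155 to 80.6 and 73.3 TPM. The desaturase Scd2 was not called at 191 and 347 TPM at 3 dpi and 192 and 226 TPM at 7 dpi, its 3 dpi libraries lying far apart, and was called lower without the first (-0.80, adjusted p = 0.000444). The count lower was 24 and 22 without a 3 dpi library and 12 and 12 without a 7 dpi library.

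Chaperones and stress genes of the endoplasmic reticulum fell in 17 of 23 and rose in 2 (median -0.94, 1 to 2 higher and 13 to 19 lower with 1 library left out). Asns, which makes asparagine and answers amino acid shortage, fell from 126 and 114 to 35.5 and 31.5 TPM (-1.87 ± 0.12, limma adjusted p = 0.0012). Sdf2l1, a chaperone cofactor, fell from 131 and 125 to 36.4 and 41.9 TPM and Hyou1, a chaperone, from 241 and 204 to 83.8 and 80.8 TPM. The members that rose were Dnajb9, from 95.3 and 117 to 221 and 237 TPM, and Ddit3, from 35.3 and 25.6 to 50.5 and 80.4 TPM. The master chaperone Hspa5, or BiP, was not called at 2330.3 and 2034 TPM at 3 dpi and 1447 and 1703 TPM at 7 dpi (adjusted p = 0.0552), but it was called lower with limma-voom, at a mean TPM of at least 1 and without the second 3 dpi library (adjusted p from 0.0165 to 0.0486). Ddit3 was no longer called without the second 7 dpi library (limma adjusted p = 0.0949).

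Glycolysis and hypoxia genes were called lower in 12 of 26 and higher in 5 (median -0.17, 3 to 7 higher and 7 to 12 lower with 1 library left out). The 12 that fell were glycolytic enzymes and a lactate transporter. Pkm, pyruvate kinase, fell from 1169.7 and 1595 to 610.5 and 509 TPM (-1.35 ± 0.20), and Ldha, lactate dehydrogenase, from 1068 and 1384 to 543 and 497 TPM (-1.29 ± 0.16, limma adjusted p = 0.00349). The transporter Slc16a3 fell from 111 and 122 to 52.6 and 40.2 TPM. Those that rose include Pfkfb3, a regulator of glycolytic flux, from 13.5 and 15.2 to 38.2 and 44.1 TPM, and the hypoxia target Egln3 from 2.76 and 3.82 to 9.65 and 10.1 TPM. Vegfa, another hypoxia target, was not called at 243 and 246 TPM at 3 dpi and 218 and 237 TPM at 7 dpi.

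Nuclear-encoded and mitochondrially encoded genes of the respiratory chain moved in opposite directions. Of 75 nuclear-encoded subunits, 52 were called lower and 3 higher (median -0.53, 1 to 5 higher and 32 to 54 lower with 1 library left out). Cox5a, of cytochrome oxidase, fell from 117 and 127 to 56.1 and 54.1 TPM (-1.19 ± 0.09), and Atp5b, of the ATP synthase, from 826 and 902 to 432 and 394 TPM (-1.13 ± 0.12). All 11 mitochondrially encoded transcripts tested, of 13, were called higher (median 2.34, 8 to 11 higher and 0 lower). The oxidase subunit mt-Co1 rose from 2118 and 3649 to 10705 and 10925 TPM and mt-Cytb, encoding cytochrome b, from 1031 and 1602 to 6695 and 6903 TPM. Their sum was 5002 and 8623 TPM at 3 dpi and 27421 and 27289 TPM at 7 dpi, and it was higher beside the ribosomal RNA entries and the intronic transcripts, in libraries made from polyadenylated RNA. The part of library preparation in it was not tested, and day and preparation cannot be told apart. Of 81 cytosolic ribosomal protein genes 22 were called lower, a share near the 25.1% of all genes tested, and 1 higher (median -0.23). Those called lower include Rplp1 from 7493 and 7212 to 3696 and 3432 TPM (-1.11 ± 0.24) and Rps2 from 2676 and 3009 to 1597 and 1445 TPM. Many of these genes have processed copies that share reads, so single members are uncertain. The counts in that list were 22 lower and 3 higher without the first 3 dpi library and 25 and 0 without the second, and 7 and 0 without the first 7 dpi library and 3 and 0 without the second. Rplp1 was no longer called without either 7 dpi library (limma adjusted p = 0.0672 and 0.103). Rps2 was no longer called without the second 7 dpi library (limma adjusted p = 0.0759).

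The last comparison asked whether the change from 3 to 7 dpi differed between Osr1cKO and control FAPs. It was tested as the interaction of genotype and day in a limma fit over all 8 libraries. Of 17371 genes tested 0 passed an adjusted p of 0.05 (0.00%), the smallest being 0.141, and 1207 (6.95%) had an unadjusted p under 0.05, 550 with a higher and 657 with a lower change in Osr1cKO. limma-voom called 0 as well. Without the first control library at 3 dpi 16 genes were called with a higher and 55 with a lower change, and without the second 6 and 6. Without the first Osr1cKO library at 3 dpi the counts were 6 and 2, without the first control library at 7 dpi 1 and 0, and without any of the other 4 libraries 0 and 0. Across genes the 2 day effects had a Pearson r of 0.882, and 97.9% of the 7615 genes called in Osr1cKO and fitted in both had the same sign in control, as descriptions over genes that are not independent. Ddx3y was at 0 and 0 TPM at 3 dpi and 47.5 and 48.6 TPM at 7 dpi in controls, against 10.5 and 2.22 TPM in Osr1cKO at 7 dpi, and control Xist was at 52.9 and 33.9 TPM at 3 dpi and 12.4 and 0.0252 TPM at 7 dpi, so the mix of sexes differed between the genotypes at 7 dpi and cannot be told apart from the interaction.

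The genes of smallest p whose change was higher in Osr1cKO than in control were Trim34b, Ucp2, Cyp51, Fdft1 and Insig1. Ucp2, a mitochondrial carrier, had 8.51 and 5.07 TPM at 3 dpi and 8.79 and 8.85 TPM at 7 dpi in Osr1cKO and 51.5 and 62.3 TPM at 3 dpi and 8.58 and 8.65 TPM at 7 dpi in control, so its control level at 3 dpi stood apart from the other 3 groups, with an interaction of 2.79 ± 0.33 (unadjusted p = 5.23e-05, limma adjusted p = 0.151). Trim34b had 0.299 and 0.124 TPM at 3 dpi and 0.281 and 0.619 TPM at 7 dpi in Osr1cKO and 5.69 and 6.67 TPM at 3 dpi and 0.201 and 0.539 TPM at 7 dpi in control (2.59 ± 0.28, adjusted p = 0.141). Trim34b belongs to a family of near-identical genes that share reads. The other 3 belong to sterol synthesis or its control. Cyp51, a demethylase of the pathway, went from 143 and 139.8 to 82.1 and 72.7 TPM in Osr1cKO and from 160.4 and 137 to 34.1 and 28.3 TPM in control (1.18 ± 0.19, adjusted p = 0.346). Fdft1, squalene synthase, went from 34.2 and 31.3 to 21.0 and 21.9 TPM in Osr1cKO and from 41.6 and 36.8 to 10.4 and 8.17 TPM in control (1.22 ± 0.20, adjusted p = 0.371). Insig1, which retains the sterol sensor in the endoplasmic reticulum, went from 173 and 168 to 121 and 123 TPM and from 186 and 171 to 69.3 and 63.7 TPM (0.75 ± 0.13, adjusted p = 0.389). In each of these 3 the 7 dpi libraries of control lay below those of Osr1cKO. Of the 26 sterol and fatty acid genes, 18 had an unadjusted p under 0.05 for the interaction, beside 6.95% of all genes. Their median change was -0.85 in Osr1cKO and -1.34 in control, both in the fit of all 8 libraries. In interferon-stimulated genes 8 of 40 had such a p, with medians of -0.83 and -2.06 in that fit, and the 3 dpi libraries of Osr1cKO differed as described.

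Those whose change was lower in Osr1cKO were Adamts4, Pcdhgb8, Kdm5d, Mir199a-1 and Bace1. Adamts4, an aggrecanase, had 161 and 157 TPM at 3 dpi and 185 and 198 TPM at 7 dpi in Osr1cKO and 129 and 117 TPM at 3 dpi and 257 and 276 TPM at 7 dpi in control (-1.02 ± 0.13, unadjusted p = 7.31e-05, limma adjusted p = 0.159). Bace1, the beta-secretase, was level in Osr1cKO (64.4 and 64.2 TPM at 3 dpi and 67.1 and 66.6 TPM at 7 dpi) where control went from 32.1 and 35.7 to 60.9 and 62.6 TPM (-0.97 ± 0.15, adjusted p = 0.346). Pcdhgb8, a clustered protocadherin that shares exons with its neighbours, had 6.99 and 11.8 TPM at 3 dpi and 8.04 and 9.25 TPM at 7 dpi in Osr1cKO and 0.47 and 0.681 TPM at 3 dpi and 7.40 and 6.68 TPM at 7 dpi in control (adjusted p = 0.207). Kdm5d is Y-linked, with 0 and 0.00504 TPM at 3 dpi and 0.706 and 0.288 TPM at 7 dpi in Osr1cKO and 0 and 0 TPM at 3 dpi and 3.29 and 4.33 TPM at 7 dpi in control. Mir199a-1, a hairpin inside a longer transcript, went from 11.3 and 9.82 to 14.9 and 22.3 TPM in Osr1cKO and from 4.59 and 4.49 to 29.2 and 28.5 TPM in control (adjusted p = 0.264). Among matrix genes, Fbln7 rose in both genotypes, in control from 14.4 and 13.1 to 193 and 209.8 TPM, with an interaction of -1.61 ± 0.27 (unadjusted p = 0.000496, adjusted p = 0.389), and Thbs4 in control from 517 and 766 to 2153 and 2295 TPM (-1.27 ± 0.33, adjusted p = 0.592). In both genes the 7 dpi libraries of control lay higher above their 3 dpi libraries than those of Osr1cKO did. Of elastic fibre genes 7 of 18, and of imprinted genes 7 of 16, had an unadjusted p under 0.05 for the limma interaction, beside 6.95% of all genes. Their median interactions were -0.39 and -0.34. For the mitosis list the median change in that fit was -2.49 in Osr1cKO and -2.80 in control, with 0 of 28 at an unadjusted p under 0.05.

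**Figure D5:**
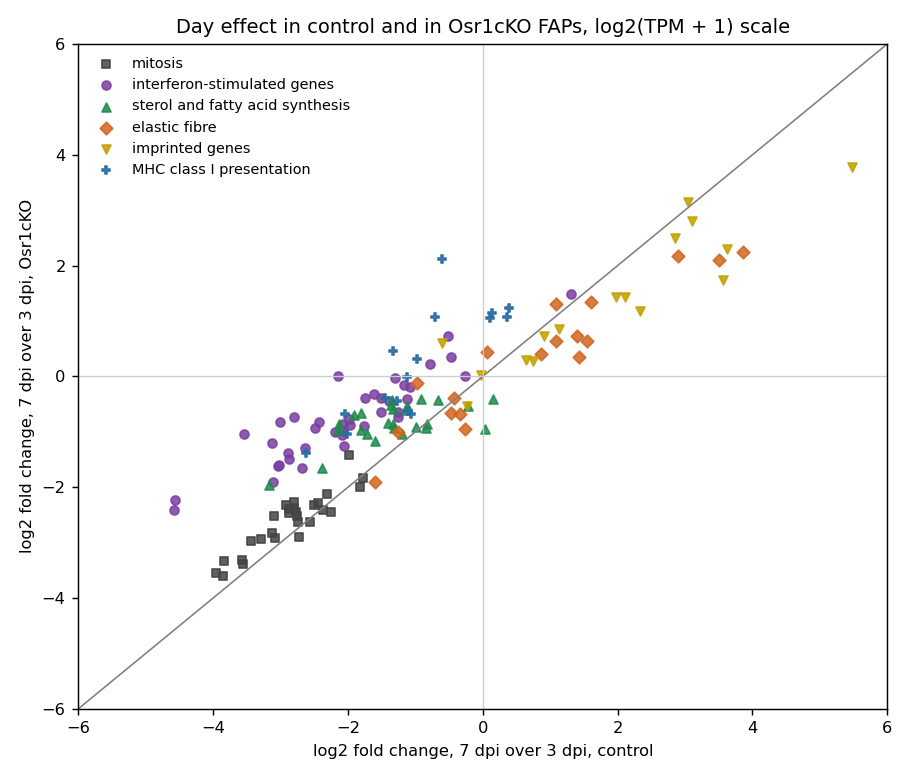
Log2 fold change of 7 dpi over 3 dpi in control (horizontal) and in Osr1cKO (vertical), both from the fit of all 8 libraries on the log2(TPM + 1) scale, for the tested members of 6 lists; the diagonal marks equal change. Sterol and interferon-stimulated genes lie mostly above the diagonal, with medians of -1.34 and -2.06 in control, and no gene passed the interaction test after adjustment.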

How the data were processed

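RNA was measured in 8 libraries of FACS-isolated GFP+ FAPs, 2 per genotype and day. Per the labels and methods, the authors made stranded libraries from polyadenylated RNA, sequenced them in paired-end mode, aligned reads with STAR to mm10 and deposited TPM per gene computed from DESeq2-normalized fragment counts. The counter, its annotation and its use of strand are not given in the sources used here. TPM keeps no total, so depth was taken from the steps between low values. The smallest step of a gene is 1 fragment, and of the values below 50 fragments 98.7% to 99.0% were whole to within 0.02. Depth ran from 36516534 to 51096361 fragments per library.

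Of 55385 entries, 109 further entries of 106 repeated symbols were left out. Of 55276 symbols, 53281 matched GENCODE M21 (GRCm38), which gave coordinates, gene types and overlaps. TPM were rescaled between libraries, with 30% of log ratios trimmed at each end, and tested as log2(TPM + 1) with limma 3.58.1 (R 4.3.3, trend) on the 4 Osr1cKO libraries, and for the interaction on all 8. Genes needed 10 fragments in 2 libraries and 15 in all, or a mean TPM of 1 where no length was known. p-values were adjusted by Benjamini-Hochberg over all genes tested. Called genes had an adjusted p below 0.05 and changed by more than 1.2-fold. Python 3.11.15 with pandas 2.3.3, NumPy 2.4.6 and matplotlib 3.10.9 made the tables and plots.

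The members and gene lists were chosen with earlier results of these data known. Genes were named by a rule: Osr1, the 10 largest changes a direction above 20 TPM without overlap between days, up to 4 called members a direction and 2 uncalled members of each list, and the 5 smallest interaction p-values a direction. Beyond the rule, after their values were seen, Dcn, Mkx, Pparg, Pecam1, Isg15, C3, C1qa, Lyz2, Igf1r, Axin2, Tgfb1, Tgfb3, Tgfbr1, Tgfbr2, H19, Plagl1, Igf2, Dpp4, Pi16, Fasn, Tnnc2, mt-Co1 and mt-Cytb were named too. Some genes that the rule names are not reported here. Promoters came from RefSeq. Alternatives were other scalings, filters, pseudocounts and thresholds, limma-voom on recovered fragments, a replicate block and each library left out. No count test was a main result because the deposited values are TPM.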

Additional observations from a re-analysis of the deposited data

How the results depend on the processing

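The day effect in Osr1cKO FAPs kept counts within 1.5 times of 3533 higher and 4087 lower genes under other scalings, pseudocounts, limma-voom, a robust fit, an adjusted p under 0.1 and all 8 libraries in 1 fit. Without a filter on low values 1889 were called higher and 3805 lower. At more than 2-fold 1326 and 1180 were called. With 1 library left out the counts ran from 1526 to 3457 higher and from 1929 to 4278 lower, the lowest without the second 7 dpi library. Leaving out a 7 dpi library leaves 1 sample in that group, which is assumed to vary like the others.

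The interaction of genotype and day gave 0 higher and 0 lower at an adjusted p under 0.05, against 10 and 20 without a filter, 1 and 2 with a pseudocount of 0.1, 0 and 1 at a mean TPM of at least 1, and 550 and 657 at an unadjusted p under 0.05. With 1 library left out it ran from 0 to 16 higher and from 0 to 55 lower. The cause was not tested. Without further scaling the median interaction over all genes moved from -0.03 to 0.11 on the log2 scale.

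Replicate numbers share no animal between days or genotypes, and deviations of same-numbered samples had correlations from -0.145 to 0.0657, so the samples are not paired. With the replicate block 2979 genes were called higher and 3573 lower, and the interaction gave 0 and 0. 

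Of 272 genes followed by name, including some not reported here, 18 turned sign under an alternative, none of them called over all 4 libraries. Of these 2 were called on the turned side: Mmp3 had -0.50 without the first 3 dpi library and 0.71 without the second, and Ptx3 -1.23 and 0.63. Acta2 had 1.04 and -0.34 in those fits. Calls were lost for 59 of them without the second and 43 without the first 7 dpi library, and for 18 in the fit of all 8 libraries. Leaving out mitochondrial and ribosomal RNA entries, an alternative chosen after seeing the data like the list medians over all 8 libraries, gave 3521 higher and 4082 lower, and 0 and 0 for the interaction. All alternatives planned were run. Low genes at 7 dpi are limited by depth.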

Other observations

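Transcript classes outside the protein-coding genes were called higher at 7 dpi more often than lower in Osr1cKO FAPs. Of 362 entries of the annotation class TEC, 55.0% were called higher and 1.38% lower. Of 325 long intergenic noncoding RNAs, 32.0% were called higher and 7.69% lower, and of 330 antisense genes 33.0% and 4.24%. Over all genes tested the shares were 21.7% and 25.1%. Low entries of these classes could pass the minimum level through the 7 dpi libraries alone, so the filter bears on their shares. The mitochondrial share of TPM and the share of ribosomal RNA entries were higher at 7 dpi in control libraries as well, the first going from 1.04% and 0.550% to 2.95% and 2.76% and the second from 3.66% and 3.11% to 12.6% and 11.8%.

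Schwann cell markers, which the sort should leave out, summed to 53.9 and 50.1 TPM at 3 dpi and 59.1 and 56.6 TPM at 7 dpi. Neutrophil markers summed to 3.79 and 2.42 TPM at 3 dpi and 8.94 and 18.1 TPM at 7 dpi, and those of T, B and NK cells to 4.58 and 5.46 TPM at 3 dpi and 11.4 and 10.1 TPM at 7 dpi, most of it Cd79a. These sums are given as values with no explanation.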
